A study of Rattus norvegicus with 12 samples.

Results

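The amino acid, creatine and methionine enzymes of the kidney were examined as a list of 48 genes, chosen by name and matched to the array's gene names, with older symbols of the same gene counted. All 48 had a probe, and 47 were among the 18510 genes tested. RNA came from the left kidney, taken whole, of female rats of the strain F344 operated at 10 weeks of age. The injured groups had unilateral ischemia-reperfusion injury (IRI), in which the blood supply of the left kidney is stopped and then restored, and were killed at day 7 or at day 3. The sham group had the operation without the injury and was killed at day 7, so that no sham group matched day 3 in time. Each group held 4 rats and 4 arrays, 12 arrays in all, and the design text ties each array to a rat of its own.

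The proximal tubule of the kidney carries many of the enzymes of amino acid breakdown otherwise known from the liver. It makes guanidinoacetate, the precursor of creatine, and turns circulating citrulline into arginine for the rest of the body. It also degrades tryptophan along the kynurenine route, breaks down branched chain amino acids, myo-inositol and proline, and passes homocysteine on to cysteine by transsulfuration.

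Levels are given as the log2 of a probe's processed signal minus the 75th percentile of its array, so that 0 is the signal of the 75th percentile. The unscaled 75th percentile lay between 422 and 562 intensity units at day 7, between 665 and 743 at day 3 and between 225 and 394 in sham, and all changes are relative to it. Probes bind with different strength, so levels were compared between arrays and not between genes. A gene was called lower or higher when its Benjamini-Hochberg adjusted p over all tested genes, from limma, was below 0.05. Of the 47 tested enzymes, 43 were well above background on all 12 arrays, and none had a saturated spot. Tat, the aminotransferase that starts tyrosine breakdown, was well above background on no array and was not tested.

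Of the 47 probes used, 9 had ends farther apart on the rat genome build rn4 than their length of 60 bases. The probes of Upb1, Prodh and Ass1 are such probes and are shown as examples that span a gap between their ends. Upb1 and Prodh were among the steepest falls at day 3 described below, and Ass1 had the largest called change of its role there. The probe of Asns is shown because Asns was the enzyme called higher at day 3.
Upb1: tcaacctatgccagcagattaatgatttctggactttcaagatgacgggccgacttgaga
Prodh: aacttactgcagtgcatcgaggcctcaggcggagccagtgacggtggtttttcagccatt
Ass1: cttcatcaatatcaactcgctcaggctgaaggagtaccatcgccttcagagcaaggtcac
Asns: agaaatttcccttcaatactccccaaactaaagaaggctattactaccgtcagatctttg
In rn4, per the array files, the Upb1 probe ran over chr20:13716290-13717947, a span of 1658 bases on the minus strand. The Prodh probe ran over chr11:84913567-84914043, a span of 477 bases on the plus strand. The Ass1 probe ran over chr3:10620727-10622079, a span of 1353 bases on the plus strand. The Asns probe lay unbroken on the minus strand at chr4:32759136-32759195.

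At day 3, 42 of the 47 enzymes were lower than in sham and 1, Asns, was higher. Over all tested genes 33.1% were lower and 24.2% higher. The median change of the enzymes was -1.69 on the log2 scale, beside -0.13 over all tested genes. Of the enzymes called lower, 35 lay at least 2-fold below sham, and the share of all genes that did was not counted. All 4 day 3 arrays lay below all 4 sham arrays for 41 enzymes, a separation seen for 29.5% of all genes. The falls were steepest for Upb1, Dpys, Prodh, Miox and Haao, each at least 16.3-fold. These folds depended on the processing. Over the alternative fits and single slides the log2 changes ran from -5.44 to -2.74 for Upb1 and from -5.52 to -2.35 for Dpys. They ran from -5.40 to -2.28 for Prodh, from -4.70 to -2.22 for Miox and from -5.06 to -2.62 for Haao. Arg2, Asl, Amt and Phgdh did not pass the test. Scaled by total signal, 37 enzymes were lower, without Qdpr, Agxt2, Ahcy, Shmt1 and Psat1, and with the background correction normexp 26 were lower and none higher. Within slides 1, 2 and 3 of the array, each of which held all groups, the median change was -1.41, -1.95 and -1.50.

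At day 7, 22 enzymes were lower than in sham and none of the 47 was higher by limma, also at an unadjusted p under 0.05. Over all tested genes 10.6% were lower and 8.21% higher. The median change was -0.91, beside -0.07 over all tested genes. Of the enzymes called lower, 17 lay at least 2-fold below sham, again without a count over all genes. For 26 enzymes the day 7 arrays lay wholly below the sham arrays, a separation seen for 12.6% of all genes. Gldc, Prodh, Acmsd, Haao and Cth were the lowest of the called enzymes relative to sham. Without day 7 replicate 1 the count of lower enzymes was 12, and without day 7 replicate 3 it was 13. Over all genes the lower calls dropped as well, from 1965 to 1305 and to 1142. Under normexp only Gldc passed, and 28 enzymes passed when spots below their local background were also set aside. Over all genes 17 and 2213 were lower in these fits. Scaled by total signal, 15 enzymes were lower, without Qdpr, Fah, Dao, Ddo, Dmgdh, Mut and Pcca, and the median change was -0.67. With the slide or the scan batch as a block, Fah, Dao, Dmgdh, Mut and Pcca did not pass and Amt did, which gave 18 lower enzymes in each. The median change was -0.62, -1.32 and -0.79 within slides 1, 2 and 3.

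Between the days, 27 enzymes were higher at day 7 than at day 3 and 1, Ahcy, was lower. Over all tested genes 18.0% were higher and 13.4% lower. The median change was 0.87, beside 0.05 over all genes. All day 7 arrays lay above all day 3 arrays for 17 enzymes, a separation seen for 18.6% of all genes. Under normexp only Miox was higher. The median was 0.72, 0.79 and 0.83 within slides 1, 2 and 3. Both injured groups were set against the same sham arrays, so their changes share those arrays.

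Read side by side, the calls of the enzymes fell into 8 patterns. For 14 enzymes the level was lower at day 3, not called at day 7 against sham, and higher at day 7 than at day 3. These were Gatm, Gamt, Ass1, Hpd, Hgd, Agxt2, Ddc, Upb1, Dpys, Bckdha, Bckdhb, Pccb, Miox and Glyat. A further 12 were also higher at day 7 than at day 3 but still lower than sham, namely Fah, Dao, Aass, Acmsd, Haao, Cbs, Cth, Dmgdh, Aldh6a1, Mut, Pcca and Prodh. For 9 enzymes the level was lower on both days with no call between them, namely Gldc, Gcsh, Qdpr, Ddo, Kmo, Kynu, Mat2a, Sardh and Dpyd. Lower at day 3 with no other call were 6 enzymes, Hao2, Afmid, Bhmt, Ivd, Shmt1 and Psat1. Ahcy was called lower in all 3 comparisons, though at day 3 not with the slide as a block or with total signal scaling, Asl was called higher between the days alone, Asns was called higher at day 3 alone, and Arg2, Amt and Phgdh were called in none. That one comparison was called and another not does not show that the 2 changes differ.

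**Figure D1:**
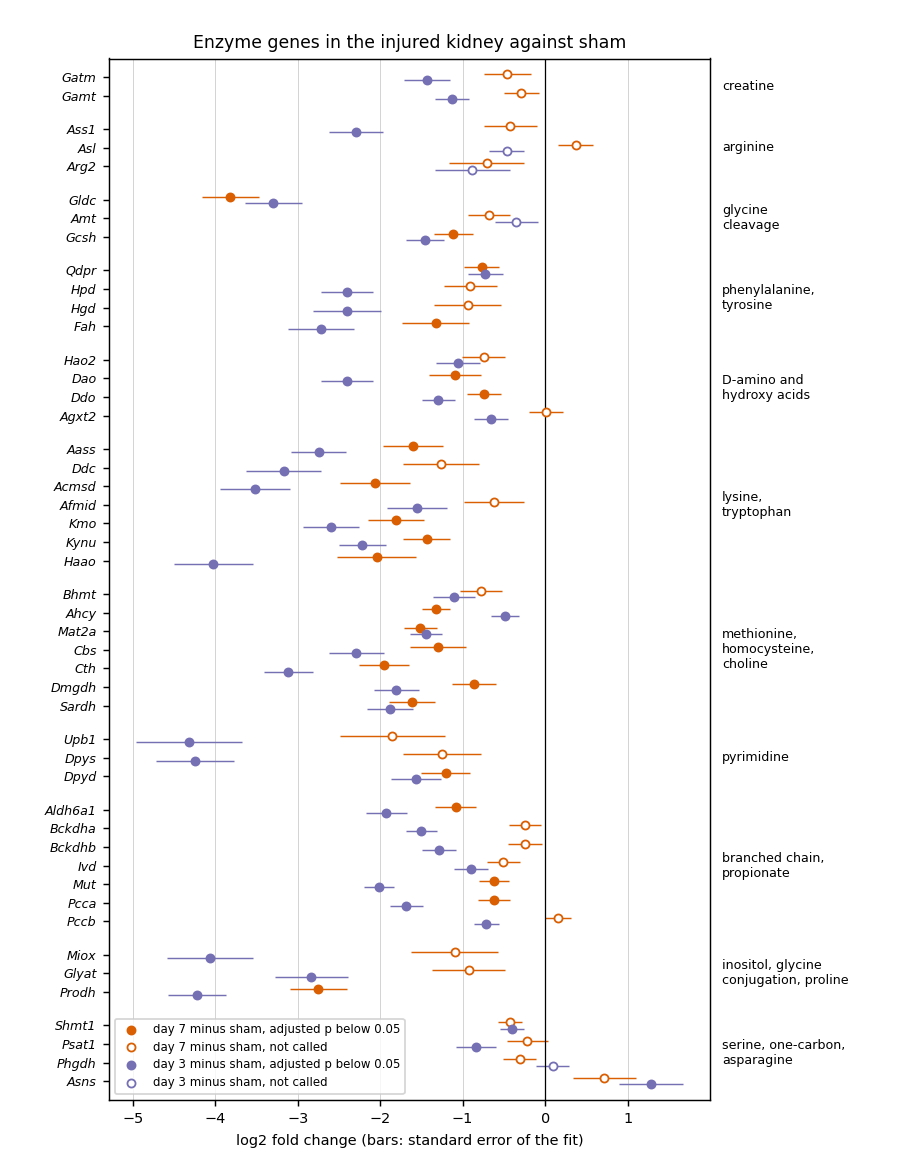
Log2 fold change of each of the 47 tested enzymes against sham, at day 7 in orange and at day 3 in violet, ordered by role down the page. Points are the fitted changes, bars their standard errors, and filled points had an adjusted p below 0.05. Upb1 lies lowest at day 3 at -4.31 and Gldc lowest at day 7 at -3.82, and Asns is the one filled point right of 0.

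**Figure D2:**
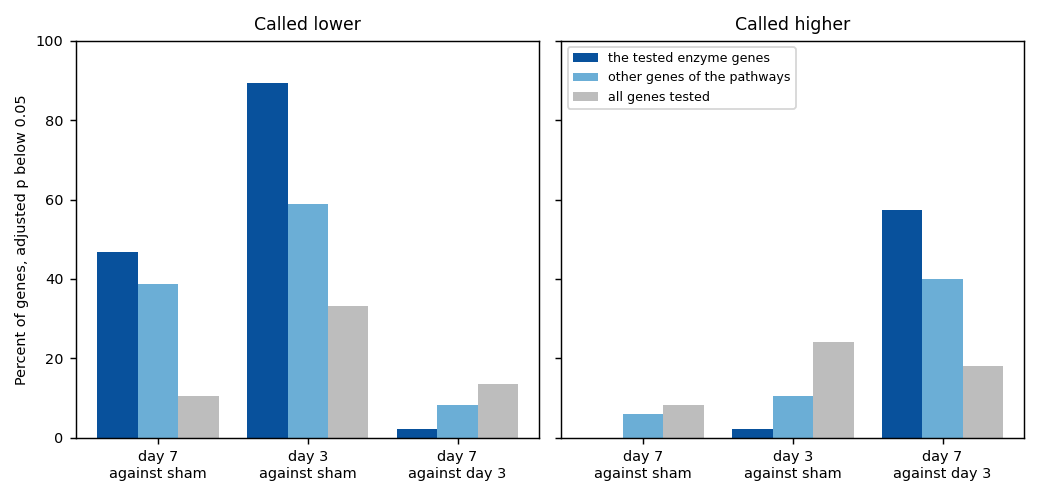
Percent of genes called lower (left) and higher (right) in each comparison, for the 47 tested enzymes, for the 85 other tested genes of the pathways and for all 18510 genes. At day 3 against sham 89.4% of the enzymes were called lower, beside 58.8% of the other pathway genes and 33.1% of all genes.

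The 2 creatine synthesis enzymes were lower at day 3 and higher again at day 7. Gatm, which makes guanidinoacetate from arginine and glycine, had levels of 4.37, 5.47, 4.91 and 5.58 at day 7, of 4.14, 4.22, 4.59 and 3.48 at day 3, and of 5.47, 5.77, 5.51 and 5.41 in sham (replicates 1 to 4, here and below). Its day 3 arrays lay below all sham arrays, and its day 7 arrays overlapped both other groups. Gatm fell by 1.43 ± 0.28 at day 3 against sham (log2 fold change ± SE of the fit, here and below; adjusted p = 0.0011) and rose by 0.98 ± 0.28 between the days (adjusted p = 0.023). That rise did not pass without day 3 replicate 4, day 7 replicate 2 or day 7 replicate 4, where it lay between 0.77 and 0.85 with adjusted p between 0.063 and 0.069. A second Gatm probe, with the same accession in the files but placed apart from the first on chromosome 3 of rn4, gave -1.12 at day 3 and 0.92 between the days, and whether both read 1 transcript was not tested. Gamt, which methylates guanidinoacetate to creatine, had levels of 1.41, 1.52, 1.13 and 2.02 at day 7, of 0.59, 0.48, 1.04 and 0.60 at day 3, and of 2.08, 1.95, 1.53 and 1.67 in sham. All its day 3 arrays were below all other arrays. Gamt fell by 1.13 ± 0.21 at day 3 (adjusted p = 0.00077) and rose by 0.84 ± 0.21 between the days (adjusted p = 0.012). At day 7 against sham neither passed, with -0.46 for Gatm and -0.29 for Gamt.

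Of the 3 arginine enzymes, 1 was lower at day 3, none was called at day 7 against sham by limma, and 2 were higher at day 7 than at day 3. Ass1, which joins citrulline and aspartate to argininosuccinate, had levels of 3.35, 4.41, 3.92 and 4.72 at day 7, of 2.37, 2.30, 2.87 and 1.38 at day 3, and of 4.50, 4.70, 4.41 and 4.48 in sham. The sham arrays stood close together, the day 3 arrays lay below all others, and day 7 spread from below sham up into it. Ass1 fell by 2.29 ± 0.32 at day 3 (4.89-fold, adjusted p = 0.00013) and rose by 1.87 ± 0.32 between the days (adjusted p = 0.0025). Asl, which splits argininosuccinate into arginine and fumarate, had levels of 2.90, 3.51, 3.05 and 3.57 at day 7, of 2.58, 2.39, 2.61 and 2.10 at day 3, and of 2.83, 2.86, 2.53 and 3.32 in sham. Its day 7 arrays lay above all day 3 arrays and overlapped sham. Asl rose by 0.84 ± 0.21 between the days (adjusted p = 0.013), while its changes against sham, -0.46 at day 3 (adjusted p = 0.079) and 0.37 at day 7 (adjusted p = 0.24), did not pass. Arg2, a mitochondrial arginase, changed by -0.88 ± 0.45 at day 3 and -0.71 ± 0.45 at day 7, neither past the test. Its probe was not well above background on every array.

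The glycine cleavage system breaks glycine down in the mitochondrion. Gldc, its decarboxylase, had levels of 0.42, -0.72, -0.32 and -0.80 at day 7, of 0.33, 0.65, -0.50 and 0.17 at day 3, and of 2.97, 3.02, 3.72 and 4.14 in sham. Both injured groups lay below every sham array and overlapped each other. Gldc fell by 3.30 ± 0.34 at day 3 (9.83-fold, adjusted p = 2.2e-05) and by 3.82 ± 0.34 at day 7 (14.1-fold, adjusted p = 0.00011), with -0.52 between the days (adjusted p = 0.26). Gcsh, the lipoate-bearing carrier, fell by 1.45 at day 3 and by 1.11 at day 7 (adjusted p = 0.00028 and 0.0080), and 2 probes moved alike. Amt, the aminomethyltransferase of the system, changed by -0.35 at day 3 and -0.68 at day 7, neither past the test (adjusted p = 0.26 and 0.084).

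The tested enzymes of phenylalanine and tyrosine breakdown all fell at day 3, and 3 of 4 were higher at day 7 than at day 3. Hpd, which forms homogentisate, had levels of 1.72, 2.20, 2.10 and 2.81 at day 7, of 0.76, 0.71, 1.52 and -0.15 at day 3, and of 3.17, 3.41, 2.92 and 2.96 in sham. The 3 groups did not overlap, with day 7 between day 3 and sham. Hpd fell by 2.41 ± 0.32 at day 3 (adjusted p = 8.1e-05) and rose by 1.5003 ± 0.32 between the days (adjusted p = 0.0059), and its -0.91 at day 7 against sham did not pass (adjusted p = 0.065). Hgd, which opens the homogentisate ring, had levels of 1.64, 2.10, 1.57 and 2.91 at day 7, of 0.35, 0.46, 1.81 and -0.24 at day 3, and of 3.06, 3.02, 2.53 and 3.37 in sham. Day 3 replicate 3 reached into the day 7 range, and day 7 replicate 4 into the sham range. Hgd fell by 2.40 ± 0.41 at day 3 (adjusted p = 0.00045) and rose by 1.46 ± 0.41 between the days (adjusted p = 0.020).

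Fah, the hydrolase that ends the tyrosine route, had levels of 2.49, 2.85, 2.36 and 3.93 at day 7, of 1.30, 1.24, 2.70 and 0.83 at day 3, and of 4.37, 4.43, 3.91 and 4.21 in sham. As with Hgd, day 3 replicate 3 and day 7 replicate 4 stood highest in their groups. Fah fell by 2.72 ± 0.40 at day 3 (adjusted p = 0.00018) and by 1.33 ± 0.40 at day 7 (adjusted p = 0.040), and rose by 1.39 ± 0.40 between the days (adjusted p = 0.023). The rise of Hgd between the days failed without day 3 replicate 1, 2 or 4 or day 7 replicate 4 (adjusted p up to 0.063), and that of Fah failed without the same arrays (up to 0.073). The day 7 fall of Fah failed without any of 9 arrays, which were all 4 of sham, day 3 replicates 1 and 2 and day 7 replicates 1, 2 and 3 (adjusted p from 0.053 to 0.11). Qdpr, which regenerates the tetrahydrobiopterin used by phenylalanine hydroxylase, fell by 0.73 at day 3 and by 0.77 at day 7 (adjusted p = 0.012 and 0.027). Its day 7 fall failed without sham replicate 2 or 4 or day 7 replicate 1 or 3 (adjusted p from 0.055 to 0.078).

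The peroxisomal and mitochondrial enzymes of D-amino acids, hydroxy acids and glyoxylate fell by differing amounts at day 3. Dao, which oxidises neutral D-amino acids, had levels of 3.91, 5.06, 4.54 and 5.35 at day 7, of 3.22, 3.89, 3.71 and 2.80 at day 3, and of 5.81, 6.19, 5.71 and 5.54 in sham. The groups did not overlap, with day 7 in the middle. Dao fell by 2.41 ± 0.32 at day 3 (5.30-fold, adjusted p = 8.2e-05) and by 1.096 ± 0.32 at day 7 (adjusted p = 0.033), and rose by 1.31 ± 0.32 between the days (adjusted p = 0.011). Agxt2, a mitochondrial aminotransferase that uses glyoxylate, had levels of 4.86, 4.94, 4.75 and 5.27 at day 7, of 4.23, 4.23, 4.79 and 3.93 at day 3, and of 4.68, 5.28, 4.79 and 5.04 in sham. Day 7 and sham covered nearly the same range, and day 3 overlapped both through replicate 3. Agxt2 fell by 0.65 ± 0.21 at day 3 (adjusted p = 0.017) and rose by 0.66 ± 0.21 between the days (adjusted p = 0.030), with 0.01 at day 7 against sham (95% interval of the fit from -0.44 to 0.46).

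Ddo, which oxidises D-aspartate, fell by 1.30 at day 3 (adjusted p = 0.00025) and by 0.74 at day 7 (adjusted p = 0.027). Hao2, which oxidises 2-hydroxy acids, fell by 1.06 at day 3 (adjusted p = 0.0051), and its -0.75 at day 7 did not pass. The fall of Agxt2 at day 3 failed without day 3 replicate 4 (-0.53, adjusted p = 0.056), and its rise between the days failed without day 3 replicate 1, 2 or 4 or day 7 replicate 2 or 4 (adjusted p from 0.059 to 0.094). The day 7 fall of Dao failed without sham replicate 1, 2 or 3 or day 7 replicate 1 or 3 (adjusted p from 0.054 to 0.082). That of Ddo failed without sham replicate 2 or 3 or day 7 replicate 1 or 3 (adjusted p from 0.057 to 0.076).

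All 7 lysine and tryptophan enzymes fell at day 3, by a median of 2.75 on the log2 scale, and 5 of them were lower at day 7. Haao, which makes the intermediate from which quinolinate and then NAD arise, had levels of -0.59, 0.81, -0.70 and 0.97 at day 7, of -1.97, -1.53, -0.87 and -3.08 at day 3, and of 2.11, 2.54, 1.83 and 2.17 in sham. The 3 groups did not overlap. Haao fell by 4.02 ± 0.48 at day 3 (16.3-fold, adjusted p = 4.4e-05) and by 2.04 ± 0.48 at day 7 (adjusted p = 0.014), and rose by 1.98 ± 0.48 between the days (adjusted p = 0.011). Acmsd, which takes the same intermediate away from NAD synthesis, had levels of -1.46, 0.66, 0.21 and 0.47 at day 7, of -1.22, -0.98, -1.39 and -2.32 at day 3, and of 2.02, 2.41, 1.83 and 1.88 in sham. Both injured groups lay below sham, and day 7 replicate 1 fell within the day 3 range. Acmsd fell by 3.51 ± 0.42 at day 3 (11.4-fold, adjusted p = 4.8e-05) and by 2.07 ± 0.42 at day 7 (adjusted p = 0.0075), and rose by 1.45 ± 0.42 between the days (adjusted p = 0.024). That rise failed without day 3 replicate 4 or day 7 replicate 2 or 4 (adjusted p from 0.068 to 0.075).

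Ddc, which makes dopamine in the proximal tubule, had levels of 1.52, 2.70, 1.99 and 3.22 at day 7, of 0.47, 0.68, 1.54 and -0.90 at day 3, and of 3.53, 3.81, 3.56 and 3.58 in sham. Sham stood apart above both injured groups, which touched between day 3 replicate 3 and day 7 replicate 1. Ddc fell by 3.17 ± 0.46 at day 3 (9.02-fold, adjusted p = 0.00015) and rose by 1.91 ± 0.46 between the days (adjusted p = 0.011), and -1.26 at day 7 did not pass (adjusted p = 0.075). A second Ddc probe gave -1.52 at day 7 with an adjusted p of 0.040 in a fit over all probes. Aass, which joins lysine to oxoglutarate, had levels of -1.52, -0.86 and -0.29 on the 3 day 7 arrays with a value (replicate 3 had none), of -2.0003, -1.79, -1.73 and -2.62 at day 3, and of 0.60, 1.51, 0.24 and 0.49 in sham. The groups did not overlap, and the Aass probe was well above background on every array with a value. Aass fell by 2.75 ± 0.33 at day 3 (adjusted p = 6.9e-05) and by 1.60 ± 0.36 at day 7 (adjusted p = 0.013), and rose by 1.14 ± 0.36 between the days (adjusted p = 0.033). Its day 7 fall failed without day 7 replicate 1 (-1.29, adjusted p = 0.0504) and its rise without day 3 replicate 1, 2 or 4 or day 7 replicate 2 or 4 (adjusted p up to 0.13). The kynurenine hydroxylase Kmo fell by 2.598 at day 3 and by 1.81 at day 7, and the kynureninase Kynu by 2.22 and by 1.44. Afmid, the formamidase that yields kynurenine, fell by 1.55 at day 3 (adjusted p = 0.0032), and its -0.62 at day 7 did not pass.

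The 7 enzymes of methionine, homocysteine and choline metabolism fell at day 3 and 6 of them were lower at day 7, and Ahcy alone was lower at day 7 than at day 3. Ahcy, which hydrolyses S-adenosylhomocysteine, the product of methyl transfer, had levels of 0.87, 1.01, 0.88 and 1.31 at day 7, of 1.73, 1.92, 1.95 and 1.81 at day 3, and of 2.19, 2.35, 2.09 and 2.74 in sham. The groups did not overlap, and day 7 was the lowest. Ahcy fell by 1.32 ± 0.17 at day 7 (2.50-fold, adjusted p = 0.00070), by 0.49 ± 0.17 at day 3 (adjusted p = 0.025) and by 0.83 ± 0.17 between the days (adjusted p = 0.0045). The day 3 fall failed without sham replicate 4 or day 3 replicate 1 or 4 (adjusted p from 0.056 to 0.066), in the fit with a slide term (-0.45, adjusted p = 0.054) and with total signal scaling (-0.21, adjusted p = 0.28). Mat2a, which makes S-adenosylmethionine, fell by 1.44 at day 3 and by 1.51 at day 7 (adjusted p = 0.00010 and 0.00082), with -0.07 between the days (95% interval from -0.50 to 0.36). Its 2 probes moved alike against sham.

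In transsulfuration, Cbs joins homocysteine to serine and Cth releases cysteine. Cth had levels of 0.49, 1.35, 0.29 and 1.21 at day 7, of -0.42, -0.50, 0.39 and -0.76 at day 3, and of 2.99, 3.15, 2.40 and 2.62 in sham. Both injured groups lay below every sham array and met at day 3 replicate 3. Cth fell by 3.11 ± 0.30 at day 3 (8.65-fold, adjusted p = 1.4e-05) and by 1.95 ± 0.30 at day 7 (adjusted p = 0.0019), and rose by 1.16 ± 0.30 between the days (adjusted p = 0.015). Cbs had levels of -0.25, 0.29, -0.23 and 0.97 at day 7, of -0.95, -1.07, 0.19 and -1.34 at day 3, and of 1.61, 1.49, 1.29 and 1.58 in sham. The sham arrays stood above both injured groups, which overlapped. Cbs fell by 2.29 ± 0.33 at day 3 (adjusted p = 0.00016) and by 1.30 ± 0.33 at day 7 (adjusted p = 0.020), and rose by 0.99 ± 0.33 between the days (adjusted p = 0.042). The day 7 fall failed without day 7 replicate 1 or 3 (adjusted p = 0.060 and 0.062), and the rise failed without sham replicate 1 or 4, day 3 replicate 1, 2 or 4 or day 7 replicate 2 or 4 (adjusted p up to 0.12).

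Of the choline branch, Dmgdh, which strips a methyl group from dimethylglycine, had levels of -3.39, -2.42, -2.99 and -2.31 at day 7, of -3.24, -3.99, -3.50 and -4.13 at day 3, and of -2.18, -1.89, -1.59 and -1.99 in sham. The injured groups overlapped each other below sham. Dmgdh fell by 1.80 ± 0.27 at day 3 (adjusted p = 0.00018) and by 0.86 ± 0.27 at day 7 (adjusted p = 0.043), and rose by 0.94 ± 0.27 between the days (adjusted p = 0.022). The day 7 fall failed without any sham array, day 3 replicate 2 or 3 or day 7 replicate 1 or 3 (adjusted p from 0.051 to 0.11), and the rise without day 3 replicate 2 or 4 or day 7 replicate 2 or 4 (up to 0.068). Sardh, which acts next, on sarcosine, fell by 1.88 at day 3 and by 1.61 at day 7 (adjusted p = 0.00016 and 0.0032), with a probe not well above background on every array. Bhmt, which remethylates homocysteine with betaine, fell by 1.102 at day 3 (adjusted p = 0.0030), and its -0.78 at day 7 did not pass (adjusted p = 0.051). Bhmt has a close relative, Bhmt2, whose transcript its probe may also bind.

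The 3 steps of pyrimidine breakdown held 2 of the steepest falls. Upb1, which takes the last step and yields beta-alanine, had levels of -0.22, 1.08, 0.25 and 1.89 at day 7, of -1.68, -1.57, 0.01 and -3.61 at day 3, and of 2.601, 2.79, 2.11 and 2.91 in sham. Sham lay above both injured groups, day 3 was widely spread, and its replicate 3 reached the day 7 range. Upb1 fell by 4.31 ± 0.64 at day 3 (19.9-fold, adjusted p = 0.00017) and rose by 2.46 ± 0.64 between the days (adjusted p = 0.015), and -1.85 at day 7 did not pass (adjusted p = 0.063). Day 3 replicate 4 weighed on these values, and without it they were -3.68 and 1.83. Dpys, the second step, had levels of -0.92, 0.27, -0.44 and 0.58 at day 7, of -3.44, -2.85, -1.83 and -4.37 at day 3, and of 1.13, 1.62, 0.97 and 0.77 in sham. The 3 groups did not overlap. Dpys fell by 4.25 ± 0.48 at day 3 (19.0-fold, adjusted p = 3.2e-05) and rose by 2.99 ± 0.48 between the days (7.97-fold, adjusted p = 0.0016), and -1.25 at day 7 did not pass (adjusted p = 0.085).

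Dpyd, the first and rate-limiting step, had levels of -3.38, -2.90, -3.43 and -2.22 at day 7, of -3.57, -3.56, -2.77 and -3.48 at day 3, and of -1.91, -1.45, -2.32 and -1.43 in sham. The injured groups shared a range, and day 7 replicate 4 lay just above the lowest sham array. Dpyd fell by 1.57 ± 0.30 at day 3 (adjusted p = 0.00097) and by 1.21 ± 0.30 at day 7 (adjusted p = 0.018), with 0.36 between the days (adjusted p = 0.37). Its probe was dim, not well above background on every array, and the day 7 fall failed without day 7 replicate 1 or 3 (adjusted p = 0.053 and 0.055). A second Dpyd probe gave -1.01 at day 3 and -0.82 at day 7, and was well above background on no day 7 array.

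**Figure D3:**
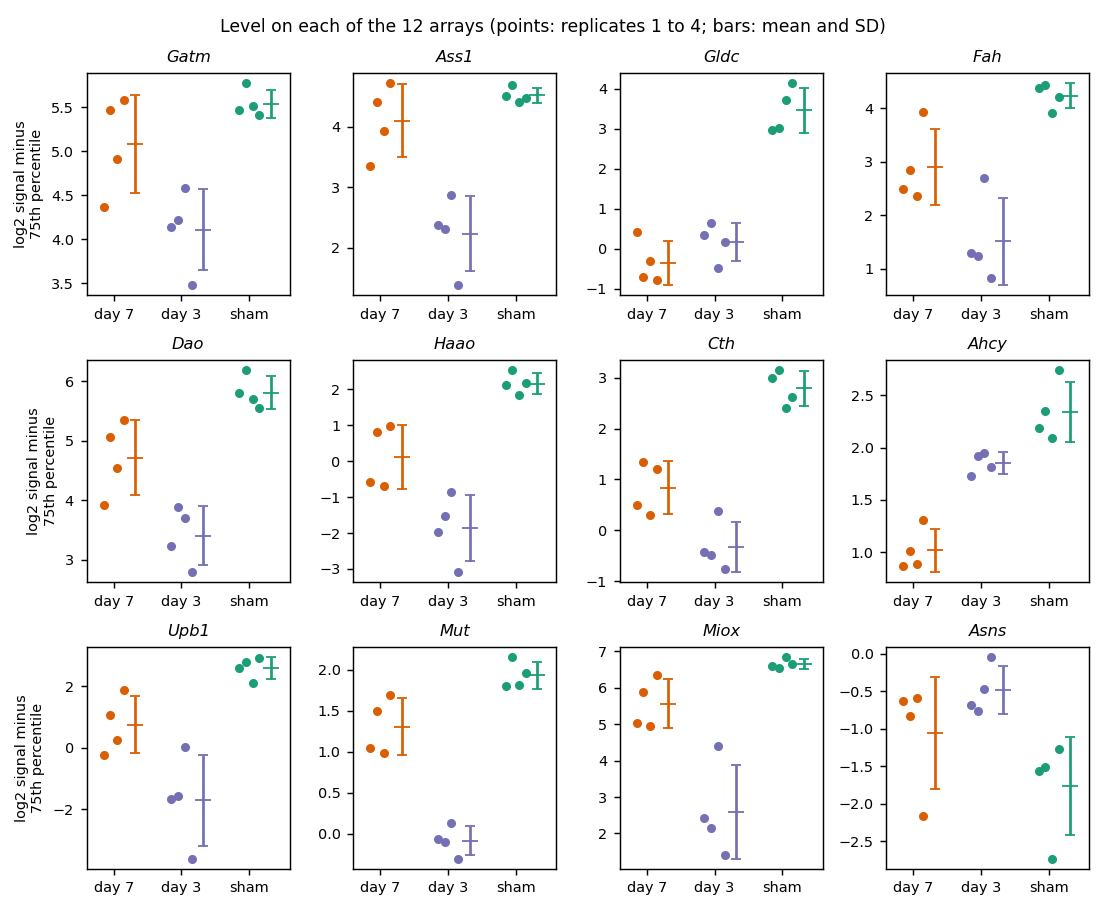
Level of 12 of the enzymes on each array, as log2 signal minus the array's 75th percentile, with day 7 (orange) left of day 3 (violet) and sham (green). Points are replicates 1 to 4 and the bars beside them the mean and SD (n = 4). For Gldc both injured groups lie below 1, against 2.97 to 4.14 in sham, while for Ahcy day 7 lies lowest and for Mut day 3 lies lowest.

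In the breakdown of branched chain amino acids all 7 enzymes fell at day 3 and 6 were higher at day 7 than at day 3. Mut (current symbol Mmut), the mutase that carries methylmalonyl-CoA into succinyl-CoA, had levels of 1.05, 1.497, 0.99 and 1.70 at day 7, of -0.06, -0.10, 0.14 and -0.30 at day 3, and of 1.81, 2.16, 1.81 and 1.96 in sham. The groups were narrow and did not overlap. Mut fell by 2.02 ± 0.18 at day 3 (4.04-fold, adjusted p = 1.0e-05) and by 0.62 ± 0.18 at day 7 (adjusted p = 0.033), and rose by 1.39 ± 0.18 between the days (adjusted p = 0.00067). Aldh6a1, the methylmalonate semialdehyde dehydrogenase of valine breakdown, had levels of 2.20, 2.98, 2.63 and 3.15 at day 7, of 1.97, 1.96, 2.26 and 1.39 at day 3, and of 3.97, 4.19, 3.46 and 3.67 in sham. Day 7 lay below every sham array and just overlapped day 3. Aldh6a1 fell by 1.93 ± 0.25 at day 3 (adjusted p = 7.2e-05) and by 1.08 ± 0.25 at day 7 (adjusted p = 0.012), and rose by 0.84 ± 0.25 between the days (adjusted p = 0.024). The rise failed without day 3 replicate 2 or 4 or day 7 replicate 2 or 4 (adjusted p from 0.051 to 0.077), and the day 7 fall of Mut failed without sham replicate 1, 2 or 4 or day 7 replicate 1 or 3 (adjusted p from 0.052 to 0.096).

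Bckdha and Bckdhb, the E1 subunits of the branched chain keto acid dehydrogenase, moved alike. Bckdha had levels of 0.06, 0.04, -0.35 and 0.50 at day 7, of -1.20, -1.16, -0.86 and -1.55 at day 3, and of 0.23, 0.40, 0.26 and 0.34 in sham. Bckdhb had levels of -0.33, 0.40, -0.34 and 0.09 at day 7, of -1.13, -1.24, -0.89 and -1.08 at day 3, and of 0.08, 0.57, -0.16 and 0.32 in sham. For both, day 3 lay below all other arrays and day 7 overlapped sham. Bckdha fell by 1.501 ± 0.19 at day 3 (adjusted p = 6.8e-05) and rose by 1.25 ± 0.19 between the days (adjusted p = 0.0014). Bckdhb fell by 1.29 ± 0.20 at day 3 (adjusted p = 0.00027) and rose by 1.04 ± 0.20 between the days (adjusted p = 0.0042). Each stood at -0.25 at day 7 against sham, which did not pass.

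Pcca and Pccb, the subunits of propionyl-CoA carboxylase, stood differently to sham at day 7. Pcca had levels of 0.14, 0.14, -0.40 and -0.01 at day 7, of -0.74, -1.53, -1.03 and -1.09 at day 3, and of 0.39, 0.93, 0.57 and 0.47 in sham. Pccb had levels of 1.41, 1.12, 1.09 and 1.12 at day 7, of 0.30, 0.23, 0.67 and 0.08 at day 3, and of 0.96, 1.18, 0.90 and 1.08 in sham. Pcca lay below every sham array at day 7, while Pccb overlapped sham, and for both all day 7 arrays were above day 3. Pcca fell by 1.69 ± 0.20 at day 3 (adjusted p = 4.2e-05) and rose by 1.06 ± 0.20 between the days (adjusted p = 0.0033). Pccb fell by 0.71 ± 0.15 at day 3 (adjusted p = 0.0020) and rose by 0.87 ± 0.15 between the days (adjusted p = 0.0026). At day 7 against sham Pcca fell by 0.62 ± 0.20 (adjusted p = 0.048) and Pccb stood at 0.16 ± 0.15 (adjusted p = 0.51), and the difference between the 2 genes was not tested. The day 7 fall of Pcca failed without any one of 10 arrays, all but day 3 replicates 1 and 2 (adjusted p from 0.058 to 0.13). Ivd, the isovaleryl-CoA dehydrogenase of leucine breakdown, fell by 0.90 at day 3 (adjusted p = 0.0027), and its -0.51 at day 7 did not pass.

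Miox, Glyat and Prodh each fell at least 7.14-fold at day 3 and were higher at day 7 than at day 3. Miox, the kidney oxygenase that opens myo-inositol, had levels of 5.04, 5.89, 4.95 and 6.35 at day 7, of 2.42, 2.15, 4.41 and 1.40 at day 3, and of 6.60, 6.53, 6.84 and 6.65 in sham. The groups did not overlap, sham was narrow, and day 3 replicate 3 stood above its group. Miox fell by 4.06 ± 0.53 at day 3 (16.7-fold, adjusted p = 7.3e-05) and rose by 2.97 ± 0.53 between the days (7.81-fold, adjusted p = 0.0027), and -1.10 at day 7 did not pass (adjusted p = 0.16). Without day 3 replicate 3 the first 2 values were -4.67 and 3.57. Glyat, which conjugates acyl groups such as benzoate with glycine, had levels of 3.68, 4.44, 3.82 and 4.68 at day 7, of 2.03, 2.53, 3.54 and 0.87 at day 3, and of 5.06, 5.13, 5.09 and 5.04 in sham. Again the groups did not overlap and day 3 was spread widely. Glyat fell by 2.84 ± 0.44 at day 3 (adjusted p = 0.00024) and rose by 1.91 ± 0.44 between the days (adjusted p = 0.0090), with -0.93 at day 7 (adjusted p = 0.16).

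Prodh, which takes the first step of proline oxidation, had levels of -2.66, -2.74, -2.57 and -2.30 at day 7, of -3.32, -4.27, -3.91 and -4.67 at day 3, and of -0.10, 0.28, 1.13 and -0.59 in sham. The groups did not overlap, with day 7 between day 3 and sham. Prodh fell by 4.22 ± 0.35 at day 3 (18.7-fold, adjusted p = 6.4e-06) and by 2.75 ± 0.35 at day 7 (6.72-fold, adjusted p = 0.00075), and rose by 1.47 ± 0.35 between the days (adjusted p = 0.010). Its second probe gave -3.81 at day 3 and -2.36 at day 7, and was well above background on 2 of 4 day 3 arrays and 3 of 4 day 7 arrays.

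Of the 4 enzymes of serine, one-carbon units and asparagine, 1 was higher and 2 were lower at day 3, and none was called at day 7 by limma, where 1, Shmt1, had an unadjusted p under 0.05. Asns, which makes asparagine from aspartate and glutamine, had levels of -0.64, -0.83, -0.58 and -2.16 at day 7, of -0.68, -0.76, -0.47 and -0.04 at day 3, and of -1.56, -1.51, -2.73 and -1.27 in sham. All day 3 arrays were above all sham arrays, and 3 of 4 day 7 arrays were too, with day 7 replicate 4 within the sham range. Asns rose by 1.28 ± 0.38 at day 3 (2.43-fold, adjusted p = 0.013) and stood at 0.72 ± 0.38 at day 7 (adjusted p = 0.21). Without day 7 replicate 4 Asns was called higher at day 7 as well, and under normexp the day 3 value was 0.41 (adjusted p = 0.32). Psat1, the aminotransferase of serine synthesis, fell by 0.84 at day 3 (adjusted p = 0.012) and stood at -0.22 at day 7. Phgdh, the dehydrogenase before it, stood at 0.09 at day 3 (95% interval from -0.34 to 0.52) and at -0.31 at day 7. Shmt1, the cytosolic serine hydroxymethyltransferase, fell by 0.40 at day 3 (adjusted p = 0.031), which failed without sham replicate 1 or 4 or day 3 replicate 1 or 4 (adjusted p from 0.058 to 0.089).

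**Figure D4:**
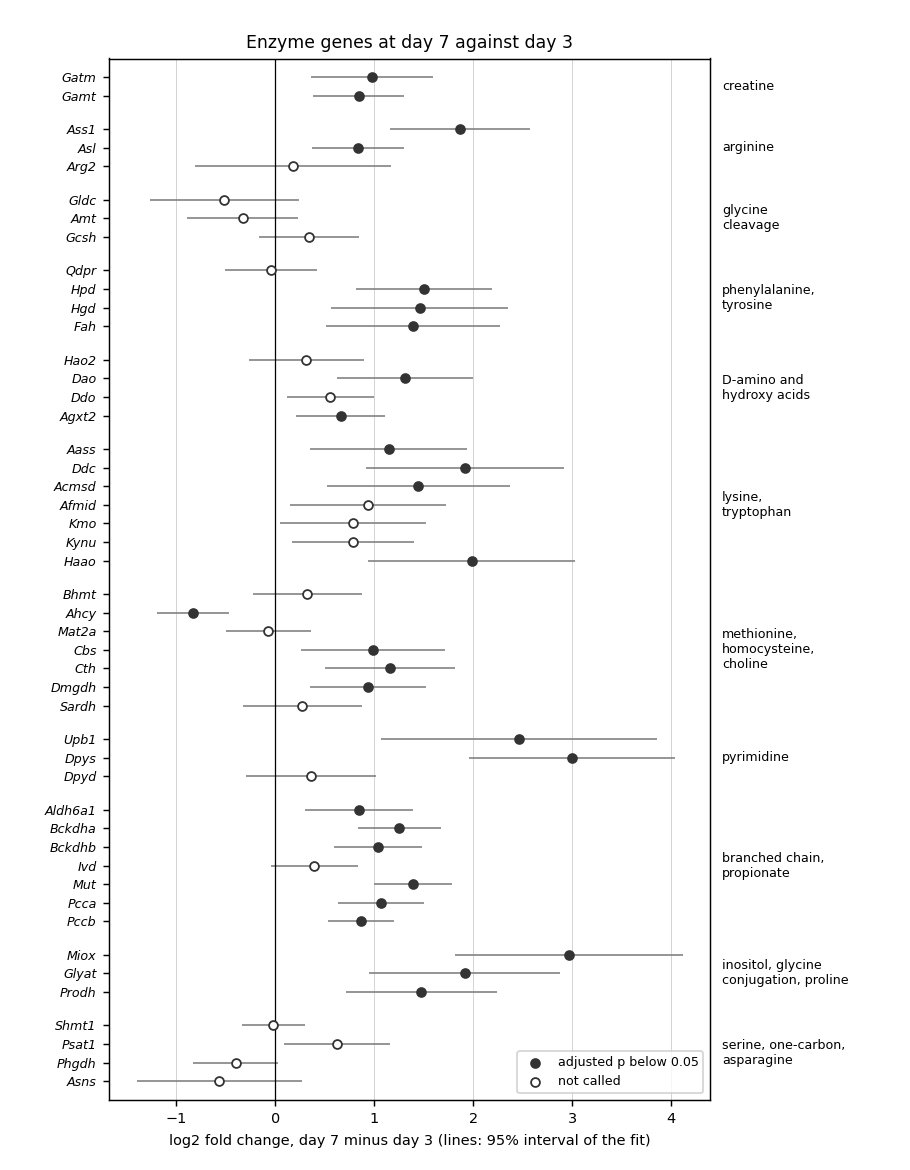
Log2 fold change of each tested enzyme at day 7 minus day 3, by role, with 95% intervals of the fit. Filled points had an adjusted p below 0.05. Dpys (2.99) and Miox (2.97) lie farthest right, Ahcy (-0.83) is the one filled point left of 0, and the glycine cleavage and serine enzymes hold no filled point.

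Within an injured group the same array was highest or lowest for many enzymes. At day 7, replicate 4 had the highest level of 34 enzymes and replicate 1 the lowest of 27. At day 3, replicate 3 had the highest level of 30 and replicate 4 the lowest of 33. Each rat had an array of its own, so differences of rat and array cannot be told apart. The same shares over all genes were not counted, so whether these counts are particular to the enzymes was not tested. The median enzyme lay at -1.39, -0.75, -1.05 and -0.40 relative to the sham mean on the day 7 arrays, at -1.56, -1.78, -1.46 and -1.95 on the day 3 arrays, and at -0.06, 0.20, -0.20 and -0.01 on the sham arrays. The SD between arrays of a group had its median over enzymes at 0.48 at day 7, 0.38 at day 3 and 0.28 in sham.

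Most markers of the proximal tubule moved with the enzymes, but not all. The 8 marker genes, all tested, had a summed signal, relative to the 75th percentile, of 118 to 225 at day 7, of 40.2 to 105 at day 3 and of 325 to 332 in sham. In such a sum the brightest probes weigh most. At day 3, 6 of 8 were lower and at day 7, 3 of 8, and all 8 were well above background on every array. Slc5a2 (-0.05 at day 3 and 0.70 at day 7) and Slc5a12 (-0.86 and 0.56) were called on neither day against sham. The sum was lowest on day 3 replicate 4 (40.2) and highest in that group on replicate 3 (105), and at day 7 it was lowest on replicate 1 (118) and highest on replicate 4 (225). In whole kidney RNA fewer tubule cells and less RNA per cell cannot be told apart, and the part of either in these results was not tested.

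Markers of other cells also differed between the groups. At day 3 the distal convoluted tubule marker Slc12a3 (-2.29), the collecting duct markers Aqp2 (-1.71) and Aqp3 (-1.62) and the podocyte marker Nphs1 (-2.68) were also lower, and of these Nphs1 alone was called at day 7 against sham (-1.66). Of the 5 macrophage markers 4 were tested, and their sum ran from 1.81 to 3.09 at day 7, from 2.78 to 4.22 at day 3 and from 0.769 to 1.22 in sham. Trem2 was higher on both days (3.82 at day 3 and 3.36 at day 7), Cd68 (2.70) and Adgre1 (1.95) passed at day 3 and not at day 7 (adjusted p = 0.060 and 0.52), and Csf1r passed on neither. Of 3 leukocyte markers Ptprc was higher on both days (2.11 at day 3 and 1.07 at day 7), and Cd3e and Cd79a were called on neither. The 2 adrenal markers tested of 3, Cyp11a1 and Star, were called on neither day. The 4 markers of dividing cells summed to 1.17 to 2.98 at day 7, to 9.17 to 15.4 at day 3 and to 0.271 to 0.626 in sham. The thick ascending limb markers Umod and Slc12a1 summed to 17.0 to 26.0 at day 7, to 1.27 to 4.73 at day 3 and to 45.1 to 58.4 in sham. Both were lower at day 3 (-5.82 and -2.35) and did not pass at day 7 (-1.55 and -0.74, adjusted p = 0.051 and 0.079). The part of these cells in the enzyme results was not tested. Of the hepatocyte markers, Alb, Apoa1 and Ttr did not reach the detection limit for testing, and Serpina1 was called in no comparison.

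**Figure D5:**
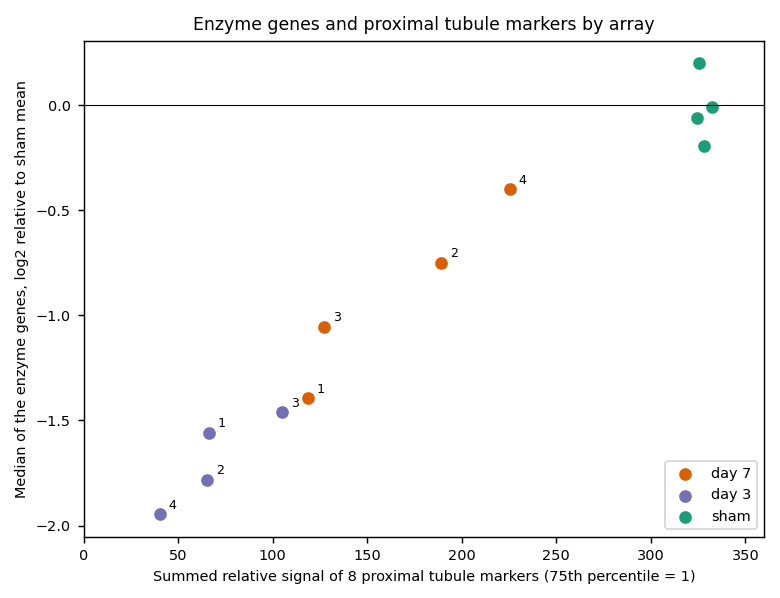
Median log2 level of the enzymes relative to the sham mean (vertical axis) against the summed relative signal of 8 proximal tubule markers (horizontal axis), 1 point per array, with replicate numbers beside the injured arrays. Day 3 arrays lie lowest on both axes, with replicate 4 at 40.2 and -1.95, and day 7 arrays lie between day 3 and sham.

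A list of 104 other genes of these pathways gave 101 with a probe and 85 tested. At day 3, 50 of them (58.8%) were lower and 9 (10.6%) higher than in sham, beside 33.1% and 24.2% of all tested genes. The median change was -1.01. At day 7, 33 (38.8%) were lower and 5 (5.88%) higher, beside 10.6% and 8.21% of all genes, with a median of -0.53. Between the days 34 (40.0%) were higher and 7 (8.24%) lower, beside 18.0% and 13.4% of all genes. By role, the steepest called change at day 3 was a fall for Dhtkd1 (-3.80), a lysine and tryptophan enzyme, for Cdo1 (-3.76), which oxidises cysteine, and for Sds (-3.41), which deaminates serine. It was also a fall for Prodh2 (-3.06), an oxidase of hydroxyproline, for Acy3 (-2.94), an acylase of aromatic conjugates, for Gstz1 (-2.80), which acts just before Fah, and for Aldh1l1 (-2.27), which oxidises formyl tetrahydrofolate. All 6 tested genes of the tryptophan and lysine group fell at day 3, as did 9 of 12 of the methionine, choline and sulfur group, among them Gnmt, the glycine methyltransferase (-3.51).

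The genes of this list that rose were fewer, and on both days their share lay below that of all genes. Bcat1, the cytosolic branched chain aminotransferase, had the steepest change of its group and was not well above background on any sham array. It was at least 7.99-fold higher at day 3 (adjusted p = 1.1e-05) and at least 1.40-fold higher at day 7 (adjusted p = 0.0054), counting from the lowest signal well above background, while the other aminotransferase, Bcat2, fell by 1.14 at day 3. Psph, the last step of serine synthesis, rose by 2.67 at day 3 and by 2.27 at day 7. Ckb, the brain type creatine kinase, rose by 1.82 and by 1.97 on the same days, and Ckmt1, a mitochondrial creatine kinase, rose by 1.35 at day 7 alone, with -0.51 at day 3 that did not pass. Aldh18a1, which makes the precursor of proline, rose by 1.25 at day 3. In the polyamine branch Sms rose at day 3 (0.68) and Sat1 at day 7 (0.79), while Odc1 and Srm fell at day 7 (-1.50 and -0.67). Of the amino acid response genes Atf4 (0.37) and Sars1 (0.41) rose at day 3 and Chac1 fell (-0.71), and none of the 7 tested was called at day 7 by limma, where 2 had an unadjusted p under 0.05. The remaining rises at day 3 were Mat2b (0.44), the regulatory partner of Mat2a, and Arg1, dim in all groups, for which no fold is given.

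RefSeq promoter windows of the assembly GRCr8, from 250 bases before to 50 after the start, were at hand for 41 of the 48 enzymes. They were searched on both strands because the enzymes moved together. The core shared by ATF4 and CEBP sites, TGATGNAA, occurred for 1 of 41 enzymes (2.44%), the untested Tat, beside 3.98% of all 33469 windows. The HNF1 site and the HNF4 direct repeat occurred for none of the 41, also with 1 mismatch allowed, beside 0.140% and 0.439% of all windows with 1 mismatch. An enzyme counted if any of its windows held a match, while all windows were counted singly, so these shares differ in unit. These matches describe the letters in these windows and nothing more.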

How the data were processed

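RNA of each kidney was labelled with Cy3 and hybridised to a single-colour Agilent rat array, per the labels, which name a labelling kit made for DNA. Agilent Feature Extraction 9.5.1.1 made the deposited array files. Its processed signal, an intensity per the file headers, is background-subtracted and was not normalized between arrays. Mean signals and local backgrounds were deposited as uncorrected intensities, and spot flags as 0 or 1. The deposited value table of the authors gives log2 values. Set against the scanner values, these were relative to the array's 75th percentile (correlation across probes at least 0.997) and centred on the probe's median, with column medians from -0.03 to 0.03.

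Here, log2 processed signals minus the array's 75th percentile were used. Outlier spots were set aside and spots of a probe averaged. Probes detected well above background throughout at least 1 group of 4 arrays entered (21062 probes), and each of 18510 genes was read from its brightest probe by mean level. A GRCr8 gene table named 17998 probes by accession, 2359 by symbol and 615 by synonym, and 9395 kept the name in the files. Limma 3.58.1 (R 4.3.3) was fitted to all 12 arrays with 1 mean per group, two-sided, with Benjamini-Hochberg adjustment over all tested genes and a threshold of 0.05. The code was tested on simulated data. For a probe undetected throughout a group, each array of that group took its own value or, if higher, the lowest detected signal on it, which gives folds written as "at least". The number of arrays limits the precision.

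The genes and lists were chosen with earlier results of these data known. Levels on every array are given for enzymes called higher in a comparison and for the largest called changes of each role. Of the other pathway genes, the largest called change of each role at day 3 is named, and those that rose were chosen after their values were seen. Arrays lay on 3 slides of 4 and in 2 scan batches. Alternatives covered scaling, background, filters, probe choice, blocks and left-out arrays.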

Additional observations from a re-analysis of the deposited data

Results flagged for a closer look

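In 6 of 140 sets of a gene and a group, 1 array stood apart from the other 3 by the gap to its nearest neighbour relative to the whole range, and chance alone gives such a gap in about 1 of 20 sets. In sham, Arg2 stood at -3.76 on replicate 3, below the others at -1.88 to -1.81, Mat2a at 3.57 on replicate 2, above the others at 2.92 to 2.95, and Psat1 at 3.94 on replicate 3, below the others at 4.14 to 4.16. At day 3, Dpyd stood at -2.77 on replicate 3, above the others at -3.57 to -3.48. At day 7, Pccb stood at 1.41 on replicate 1, above the others at 1.09 to 1.12, and Asns at -2.16 on replicate 4, below the others at -0.83 to -0.58.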

How the results depend on the processing

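At day 3 against sham the median change of the enzymes was -1.41 with total signal scaling, -1.21 with normexp, -1.32 with normexp without spots below local background, -1.41 within slide 1 and -1.95 within slide 2, and normexp left 26 lower and 0 higher. At day 7 against sham normexp left 1 lower enzyme and a median of -0.54, and the median within slide 2 was -1.32. Between the days normexp left 0 lower and 1 higher. Over all genes normexp called 1524 lower and 1643 higher at day 3, 17 and 74 at day 7, and 77 and 82 between the days. Both normexp settings added 50 to each corrected intensity. The cause of the lower counts, and the part of this addition in them, was not tested. Total signal scaling moved the median of all genes by 0.28 at day 3 and 0.24 at day 7. Relative to that median the enzymes stood at -1.56 at day 3 under both scalings. Each scaling shifts all genes of an array alike, so this value could not differ and tests nothing. Total signal scaling gave 4395 lower and 6213 higher genes at day 3, against 6129 and 4475 with the 75th percentile, and 913 and 3238 at day 7, against 1965 and 1520. Leaving out 1 array at a time, 39 to 44 enzymes were lower at day 3 and 1 higher, with medians from -1.80 to -1.57. At day 7, 12 to 27 were lower and 0 to 1 higher, with medians from -1.10 to -0.78. Between the days 18 to 32 were higher and 1 lower, with medians from 0.73 to 1.01. Over all genes these fits gave 5399 to 6152 lower at day 3 and 1142 to 1984 lower at day 7. Between the days they gave 1992 to 3868 higher genes. The replicate block gave 41 lower at day 3, 17 lower at day 7 and 23 higher between the days. Over all genes it gave 5881, 1375 and 2711 such calls, against 6129, 1965 and 3332 without a block. With the slide as a block, 40 were lower at day 3, without Ahcy and Shmt1, 18 lower at day 7 and 25 higher between the days, without Agxt2 and Cbs. Over all genes the slide block gave 6040, 1984 and 2843 such calls. The deviations of same-numbered arrays from their group means correlated between -0.331 and 0.142. Arrays of different numbers were not set beside them, so whether the numbers mark a pairing was not tested.

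Some changes that did not pass the test changed sign. Under normexp Asl (0.037) and Amt (0.13) at day 3 and Gamt (0.17) and Psat1 (0.24) at day 7 were positive, and Psat1 was 0.0193 with total signal scaling. Between the days Qdpr was 0.0371 with quantile normalization, Mat2a 0.0567 with the mean over probes, and Shmt1 0.0014 with quantile normalization, 0.0247 with normexp and 0.0009 with normexp without spots below local background. Leaving out 1 array, the day 7 change ran from -0.10 to 0.12 for Agxt2 and from -0.44 to 0.014 for Psat1, and the change between the days from -0.20 to 0.0907 for Qdpr, from -0.19 to 0.0325 for Mat2a and from -0.11 to 0.0596 for Shmt1. Arg2, Sardh and Dpyd were not well above background on every array, which limits their values. Aass had no value on day 7 replicate 3, which limits its day 7 values.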
